A study of Rattus norvegicus and Mus musculus with 9 samples.

Results

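The 10 genes described here encode 4 Notch receptors (Notch1, Notch2, Notch3 and Notch4), 3 Notch ligands (Jag1, Jag2 and Dll1) and 3 transcription factors that Notch signalling switches on (Hes1, Hey1 and Heyl). They were taken by gene symbol from the array annotation, and all 10 were found, among 14506 named genes of the rat table and 19938 of the mouse table. Each was read by 1 probe set in either table, the set of short array sequences that report on a gene together. Total RNA from 3 kinds of culture was put on arrays, 3 arrays per group and 1 sample per array: embryonic stem (ES) cells of the rat, embryonic fibroblasts of the rat, and ES cells of the mouse. The rat ES cells and the rat fibroblasts were both of strain DA. The rat ES cells grew in 3I medium, a name used for medium with inhibitors of FGF receptor, MEK and GSK3, and the fibroblasts grew in GMEM with 10% FBS. The mouse ES cells came from strain C57/BL6 and grew in GMEM with 10% FBS plus LIF, and their feeders were taken away before the RNA was extracted. For the rat ES cultures the labels make no statement on feeders. No transgene, knockout or age is given for any group. Whether a group's arrays stand for separate cultures is not said, so every p-value measures only array-to-array spread, possibly technical. Medium and cell type differ together between the rat groups and cannot be told apart.

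Notch receptors are transmembrane proteins that are activated by ligands of the Jagged and Delta families on a neighbouring cell. Ligand binding lets the receptor be cleaved, first outside the membrane by an ADAM protease and then inside it by gamma-secretase, and the freed intracellular domain enters the nucleus. There it joins the DNA-binding protein RBPJ and coactivators of the Mastermind family, and the complex turns on Hes and Hey genes, which encode repressors of the basic helix-loop-helix class. In cultured ES cells the pathway is known mainly for its part in the choice of fate on differentiation, and in mesenchymal and vascular wall cells for Jag1, Notch2 and Notch3.

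Upstream sequences are shown for Jag1 and Notch2, which differed most between the rat groups, and for the target genes Hes1 and Heyl, on which an RBPJ complex would act. They are the 250 bases before the annotated start of each gene, 5′ to 3′ on the strand of the gene, from RefSeq (rat assembly GRCr8). Capitals mark the letters GTGGGAA or GTGAGAA on either strand, a sequence RBPJ is known to bind. Jag1 lies at chr3:144894884-144895133, minus strand, Notch2 at chr2:188299086-188299335, plus strand, Hes1 at chr11:84213046-84213295, minus strand, and Heyl at chr5:140793021-140793270, plus strand.
Jag1: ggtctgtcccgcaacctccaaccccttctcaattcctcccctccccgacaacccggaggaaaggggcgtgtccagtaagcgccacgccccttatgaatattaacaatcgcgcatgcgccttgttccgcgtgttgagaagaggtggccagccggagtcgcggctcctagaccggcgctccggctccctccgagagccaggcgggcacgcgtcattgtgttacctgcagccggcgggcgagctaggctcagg
Notch2: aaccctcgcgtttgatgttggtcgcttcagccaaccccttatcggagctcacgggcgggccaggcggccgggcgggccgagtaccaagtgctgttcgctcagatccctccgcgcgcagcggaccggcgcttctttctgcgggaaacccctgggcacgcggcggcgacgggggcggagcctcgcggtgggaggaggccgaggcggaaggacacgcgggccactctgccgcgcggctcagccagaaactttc
Hes1: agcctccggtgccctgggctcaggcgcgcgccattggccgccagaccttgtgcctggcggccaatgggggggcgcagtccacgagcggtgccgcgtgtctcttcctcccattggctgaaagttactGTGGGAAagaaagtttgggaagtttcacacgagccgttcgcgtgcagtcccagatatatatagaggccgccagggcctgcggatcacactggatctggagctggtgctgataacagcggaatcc
Heyl: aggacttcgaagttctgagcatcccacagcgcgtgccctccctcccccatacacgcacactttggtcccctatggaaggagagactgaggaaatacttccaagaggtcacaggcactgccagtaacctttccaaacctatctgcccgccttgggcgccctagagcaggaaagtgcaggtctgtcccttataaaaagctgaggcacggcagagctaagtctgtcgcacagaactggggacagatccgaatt

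A window of 300 bases, from 250 before to 50 after the start, was found for 9 of the 10 genes, and the first of the windows listed was used for Jag2. The RBPJ letters were in the windows of Hes1 and Dll1, that is 2 of 9, against 10.7% of all 33469 windows in the table. In Hes1 the match GTGGGAA spans positions -124 to -118, counted from the start site as 0. The letters CACNAG, bound by Hes proteins and searched on both strands, were in 4 of 9 windows (Notch1, Notch3, Notch4 and Hes1), against 43.1% of all windows. Hes1, which is known to repress its own gene, had 4 such matches, and a pair of those in Notch1 overlap each other. These matches describe the letters of the windows and no binding was measured.

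The culture labels were first set against marker genes. All 6 measured pluripotent cell markers were called higher in rat ES cells, from Pou5f1 (log2 difference 7.04) to Lin28a (3.33), and all 10 fibroblast markers were called lower, from Postn (-5.38) to Twist1 (-1.87). A gene is called here when the limma adjusted p is under 0.05 and the groups differ at least 2-fold, a log2 difference of 1. Of 12 measured endothelial markers 3 were called higher, Pecam1 (4.58) the most, and 2 lower, Erg (-1.58) the most. The other 7 were not called, and the median of the list was 0.07. Of all genes tested, 10.6% were called higher and 10.1% lower. Of 10 mural and smooth muscle markers 7 were called lower, Tagln (-6.60) the most, and none higher, with Myh11 at 0.27. Of 6 measured neural progenitor markers 3 were called lower, Map2 (-3.39) the most, and none higher, with Tubb3 at 0.58. The fibroblast markers averaged 7.05, 7.25 and 7.47 (log2) on rat ES arrays 1, 2 and 3 and 11.35 to 11.38 on the fibroblast arrays. Each of the 10 read higher on array 3 of the rat ES cells than on their array 1 (median gap 0.37). The medians of the rat arrays over all 29215 probe sets, named or not, lay between 5.71 and 5.74, and the fibroblast markers Thy1 (5.60 ± 0.121, SD, n = 3) and Prrx1 (5.73 ± 0.049) were at that level in rat ES cells, while Col1a1 was at 10.15 ± 0.423.

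The comparison of rat ES cells with rat fibroblasts asks which parts of the Notch pathway differ between these cultures, in cell type and medium together. Jag1 and Notch2, a ligand and a receptor, fell in rat ES cells, with log2 differences of -2.60 and -1.59. Hey1 and Heyl were lower by under 2-fold, and Hes1, Notch1, Notch4 and Jag2 overlapped between the groups. Of the 10 genes, 2 were called lower and none higher, where limma called 20.7% of all genes tested, 10.1% lower and 10.6% higher. At an unadjusted p under 0.05, 1 of the 10 was higher, the ligand gene Dll1, and 5 were lower, against 32.2% and 27.5% of all genes. With no fold threshold, 5 of the 10 passed the adjusted p as lower and 1 as higher, against 25.5% and 30.9% of all genes. Rat ES and fibroblast signals stood apart without overlap for 6 of the 10, against 61.5% of all genes. The median log2 difference of the 10 was -0.20, and that of all genes was 0.00 after rounding.

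**Figure D1:**
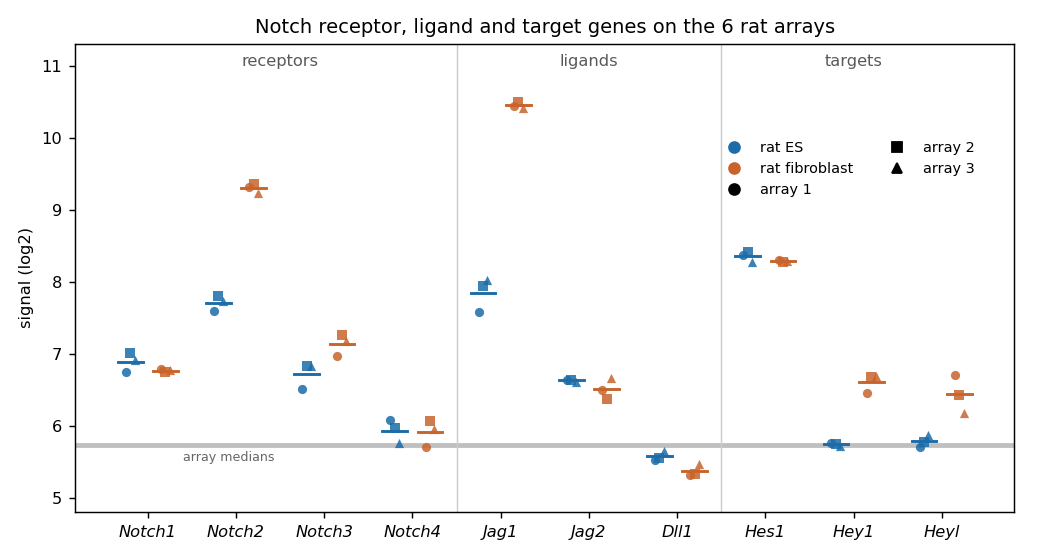
Signal (log2) of the 10 Notch genes on the 3 rat ES and 3 rat fibroblast arrays; each point is 1 array, short bars are group means, and the grey band spans the array medians. Jag1 and Notch2 stand far apart between the groups, with every fibroblast array above 9.2 for Notch2 and above 10.4 for Jag1, while the Hes1 points lie together.

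Among the receptors, Notch2 had signals of 7.59, 7.80 and 7.73 on the rat ES arrays and 9.31, 9.35 and 9.23 on the fibroblast arrays. All 3 rat ES arrays were below all 3 fibroblast arrays, by far more than the spread within either group. The mean of Notch2 was 7.71 ± 0.109 (SD, n = 3) for rat ES cells against 9.30 ± 0.062 for fibroblasts, 3.01-fold apart (log2 difference -1.59, SE 0.08, limma adjusted p = 4.33e-07). Notch2 is the receptor best known in liver, kidney and bone.

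Notch3, a receptor known from mural cells of vessels, read 6.51, 6.83 and 6.83 in rat ES cells and 6.97, 7.26 and 7.18 in fibroblasts. The groups did not overlap, yet the gap between the highest rat ES array and the lowest fibroblast array was smaller than the spread inside each group. Its log2 difference of -0.41 (SE 0.11, limma adjusted p = 0.0134) stayed below 2-fold, and without fibroblast array 2 the adjusted p was 0.0507.

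Notch1, the receptor first linked to T-cell leukaemia, read 6.74, 7.01 and 6.91 in rat ES cells against 6.78, 6.74 and 6.77 in fibroblasts. The groups overlapped, and the fibroblast arrays lay closer together than the rat ES arrays. The log2 difference was 0.13, with a 95% interval of -0.07 to 0.32 and a limma adjusted p of 0.241. Notch4, a receptor known mainly from endothelium, read 6.08, 5.96 and 5.75 in rat ES cells and 5.71, 6.06 and 5.95 in fibroblasts. The values interleaved, near the array medians, and the log2 difference was 0.02 (95% interval -0.25 to 0.29). It turned to -0.05 without rat ES array 1 and to -0.08 without fibroblast array 1. For both genes the interval leaves out a 2-fold difference of signal in either direction, for these arrays. Whether the Notch4 probe set follows its transcript at so low a signal was not tested.

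Jag1, a ligand that presents itself to Notch on the next cell, had the largest difference of the 10. Its signals were 7.58, 7.93 and 8.03 on rat ES arrays 1, 2 and 3 and 10.43, 10.49 and 10.41 on the fibroblast arrays. The fibroblast arrays lay within 0.1 of each other, and rat ES array 1 was the lowest of all. The mean of Jag1 was 7.85 ± 0.237 (SD, n = 3) for rat ES cells against 10.45 ± 0.040 for fibroblasts, 6.06-fold apart (log2 difference -2.60, SE 0.11, limma adjusted p = 2.32e-07). The order of the rat ES arrays for Jag1 was that of the fibroblast markers given above, lowest on array 1 and highest on array 3. Notch2 was instead highest on array 2. Of the 1458 genes called lower, 1021 (70%) read higher on array 3 of the rat ES cells than on array 1. This count was not made over all genes, so a general difference between those arrays cannot be told apart from it. Without rat ES array 1, 2 or 3 the Jag1 difference was -2.46, -2.64 or -2.69. The part of fibroblast RNA in the rat ES signal of Jag1 was not tested. In such bulk RNA, fewer cells of a type and less RNA per cell cannot be told apart.

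The other ligands differed little. Jag2, the second Jagged ligand, read 6.64, 6.63 and 6.61 in rat ES cells and 6.50, 6.37 and 6.65 in fibroblasts. Fibroblast array 3 exceeded all rat ES arrays, so the groups overlapped, with a log2 difference of 0.12 (95% interval -0.07 to 0.31, limma adjusted p = 0.263). Dll1, a Delta ligand known from somite formation, read 5.52, 5.55 and 5.65 in rat ES cells and 5.31, 5.33 and 5.46 in fibroblasts. All 6 values lay below the array medians, and the groups were apart by less than 0.1 at their nearest arrays. The log2 difference was 0.21 (SE 0.07, limma adjusted p = 0.0401), or 1.15-fold. The adjusted p was 0.108 with trend and robust moderation, 0.0765 and 0.116 without rat ES array 2 and 3, and 0.122 and 0.108 without fibroblast array 1 and 2.

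Among the target genes, Hes1, the repressor most used as a readout of the pathway, was at nearly the same signal in both cell types. It read 8.37, 8.41 and 8.27 in rat ES cells and 8.29, 8.28 and 8.29 in fibroblasts. The rat ES arrays lay on both sides of the fibroblast arrays. The log2 difference was 0.07 (SE 0.07, 95% interval -0.09 to 0.22, limma adjusted p = 0.456), and it was -0.02 after quantile normalization. Hes1 is also known to respond to pathways other than Notch.

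Hey1 and Heyl, repressors known from the heart and vessel wall, both lay lower in rat ES cells without reaching 2-fold. Hey1 read 5.76, 5.74 and 5.72 in rat ES cells, at the array medians, and 6.45, 6.67 and 6.69 in fibroblasts. The groups did not overlap, and the log2 difference was -0.86 (SE 0.08, 95% interval -1.05 to -0.68, limma adjusted p = 2.31e-05), an interval that reaches past 2-fold. Heyl read 5.70, 5.78 and 5.87 in rat ES cells and 6.70, 6.42 and 6.18 in fibroblasts. Its fibroblast arrays were spread over more than 0.5, the widest range among the 10 genes in that group, and none reached down to the rat ES arrays. The log2 difference was -0.65 (SE 0.13, 95% interval -0.94 to -0.36, limma adjusted p = 0.0021).

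**Figure D2:**
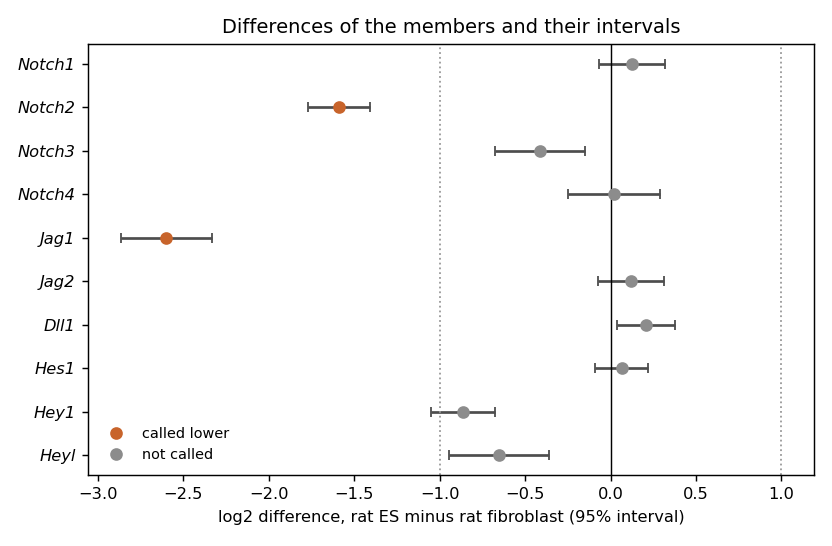
Log2 difference of rat ES minus rat fibroblast for the 10 genes, with the 95% interval of the limma fit; dotted lines mark 2-fold in either direction. Jag1 (-2.60) and Notch2 (-1.59) lie past the lower line, and the Hey1 interval crosses it.

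The genes whose 6 rat values ran closest to those of Jag1, after each gene was centred on its own mean, were Plod3, Amotl2 and Tank. Their Euclidean distances from Jag1 over the 6 arrays were 0.123, 0.135 and 0.137 (log2). Plod3, which encodes a collagen-modifying enzyme, read 7.16, 7.36 and 7.53 in rat ES cells and 9.94, 9.94 and 9.91 in fibroblasts. With 2 groups of 3 arrays, the difference between the groups makes up most of such a profile.

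The rest of the pathway was read through lists of other genes sorted by role, 73 measured of 88 listed. Limma called 9 of the 73 higher and 18 lower, against 10.6% and 10.1% of all genes. The same shares of all genes stand beside the called counts of each list below. The median log2 difference over them was -0.19. All 10 fibroblast markers above were themselves called lower, so their sharing this direction carries no information. The part of fibroblast RNA in these differences was not tested. Of the 18 pathway genes called lower, 11 (61.1%) had a larger rat ES signal on array 3 than array 1, against 70% of all genes called lower. Others, such as Dner and Acta2, ran the opposite way.

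Of 9 other ligands, 3 were called lower and 1 higher, with a median of -0.25. Mfap2, a microfibril protein reported to bind Notch ligands and receptors, read 5.26, 5.41 and 5.74 in rat ES cells and 9.84, 9.77 and 9.89 in fibroblasts, a log2 difference of -4.37 (limma adjusted p = 1.76e-08). Dner, a transmembrane protein with EGF repeats described as a Notch ligand, fell by 2.32, and the non-canonical ligand gene Dlk1 (-1.70) was the third called lower. Cntn1, a neuronal adhesion molecule also reported as a ligand, was higher by 2.15, with 6.55 ± 0.154 (SD, n = 3) in rat ES cells and 4.40 ± 0.178, below the array medians, in fibroblasts. The Delta ligands Dll3 (0.08) and Dll4 (0.04) were not called, and each of their 6 signals was under the array medians.

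Sugar chains on the receptor set which ligands it answers. A list of 6 genes that place them, with Furin, which cuts the receptor during its maturation, had 4 genes called lower and 1 higher (median -1.05). The Fringe genes went both ways. Mfng read 7.78, 7.93 and 7.76 in rat ES cells and 4.94, 4.74 and 4.21 in fibroblasts, so that all fibroblast values were below the array medians, and it was higher by 3.19 (SE 0.17, limma adjusted p = 6.38e-07). Lfng had means of 6.20 ± 0.331 and 7.50 ± 0.155 (SD, n = 3), without overlap, and fell in rat ES cells, with a log2 difference of -1.31. Rfng, at 0.12, was not called. The extracellular GlcNAc transferase gene Eogt (-2.46) and the O-glucosyltransferase gene Poglut1 (-1.52) fell, while the O-fucosyltransferase gene Pofut1 was at 0.07. Furin (-1.05) was under 2-fold after median centring (-0.98) and, narrowly, without fibroblast array 2.

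None of the 6 measured genes for receptor cleavage was called by limma, and at an unadjusted p under 0.05, which most of the genes tested pass in one direction or the other, 5 were lower and 1 higher. The ADAM protease gene Adam17 was at -0.84 and the gamma-secretase subunit genes Ncstn and Psenen were both at -0.61. Psen2, the catalytic presenilin measured here, was at 0.66. The median of the list was -0.61. Of 11 measured genes for endocytosis and turnover of ligand and receptor, Dtx3l, a partner in a ubiquitin ligase, was higher by 1.26 and Numbl, a relative of the Notch inhibitor Numb, fell by 1.00. Numbl was under 2-fold after median centring (-0.94) and without rat ES array 1 (-0.87) or fibroblast array 1 (-0.94). Numb itself was at 0.02 and the ligand-activating ubiquitin ligase gene Mib1 at 0.30.

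The nuclear part of the pathway ran the other way: of 15 measured genes limma called 4 higher and 0 lower. At an unadjusted p under 0.05, 11 were higher and 2 lower, against 32.2% and 27.5% of all genes, and the median was 0.62. Rbpj, the DNA-binding partner of all 4 receptors, read 10.22, 10.05 and 9.89 in rat ES cells and 8.20, 8.14 and 8.32 in fibroblasts. All rat ES arrays were above all fibroblast arrays, 3.57-fold on average (log2 difference 1.83, SE 0.10, limma adjusted p = 6.41e-07). The acetyltransferase gene Kat2b was higher by 1.96, the corepressor gene Ncor1 by 1.78 and the corepressor gene Ctbp2 by 1.31. Ctbp1, of the same family as Ctbp2, was instead lower, at -0.80 (limma adjusted p = 0.000206), under 2-fold and without overlap of the groups. The coactivator gene Ep300 lay at the threshold with 1.00 and was called after median centring (1.07) and without rat ES array 1 (1.02), rat ES array 3 (1.06) or fibroblast array 2 (1.07). The Mastermind genes Maml1 (-0.15) and Maml3 (-0.26) were not called.

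Within the wider Hes, Hey and Groucho families, 2 of 13 were called higher and 2 lower (median 0.03). Hey2 went against Hey1 and Heyl: it read 8.57, 8.38 and 8.21 in rat ES cells and 5.92, 6.11 and 6.06 in fibroblasts, higher by 2.36 (SE 0.10, limma adjusted p = 2.19e-07). Every rat ES array was more than 2 log2 units above every fibroblast array. Hes5 (-0.14) and Hes7 (0.07), further targets known from neural tissue and somites, were not called. Of the Groucho corepressors, through which Hes proteins act, Tle3 was higher by 1.53 while the short family member Tle5 fell by 2.02. Bhlhe41 was called lower, 2.01-fold, just past the threshold. It was under 2-fold after quantile normalization (-0.93), after median centring (-0.94), without rat ES array 3 (-0.99) or fibroblast array 2 (-0.79) and, narrowly, without rat ES array 2.

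Of 12 other measured genes that have been reported as Notch targets, limma called 8 lower and 0 higher, and the median was -1.79. At an unadjusted p under 0.05, 10 were lower and 1 was higher, Nrarp, against 27.5% and 32.2% of all genes. Pdgfrb (-5.18), a receptor of mesenchymal cells, Acta2 (-4.49), smooth muscle actin, and Snai2 (-4.41), a transcription factor of mesenchyme, led the list. Pdgfrb is also among the fibroblast markers and Acta2 among the mural markers given above, so these are the same values. Nrarp, a feedback inhibitor regarded as a close target of the receptor, read 7.18, 7.24 and 7.18 in rat ES cells and 6.87, 6.53 and 6.82 in fibroblasts, with a log2 difference of 0.46 (limma adjusted p = 0.00328), under 2-fold.

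**Figure D3:**
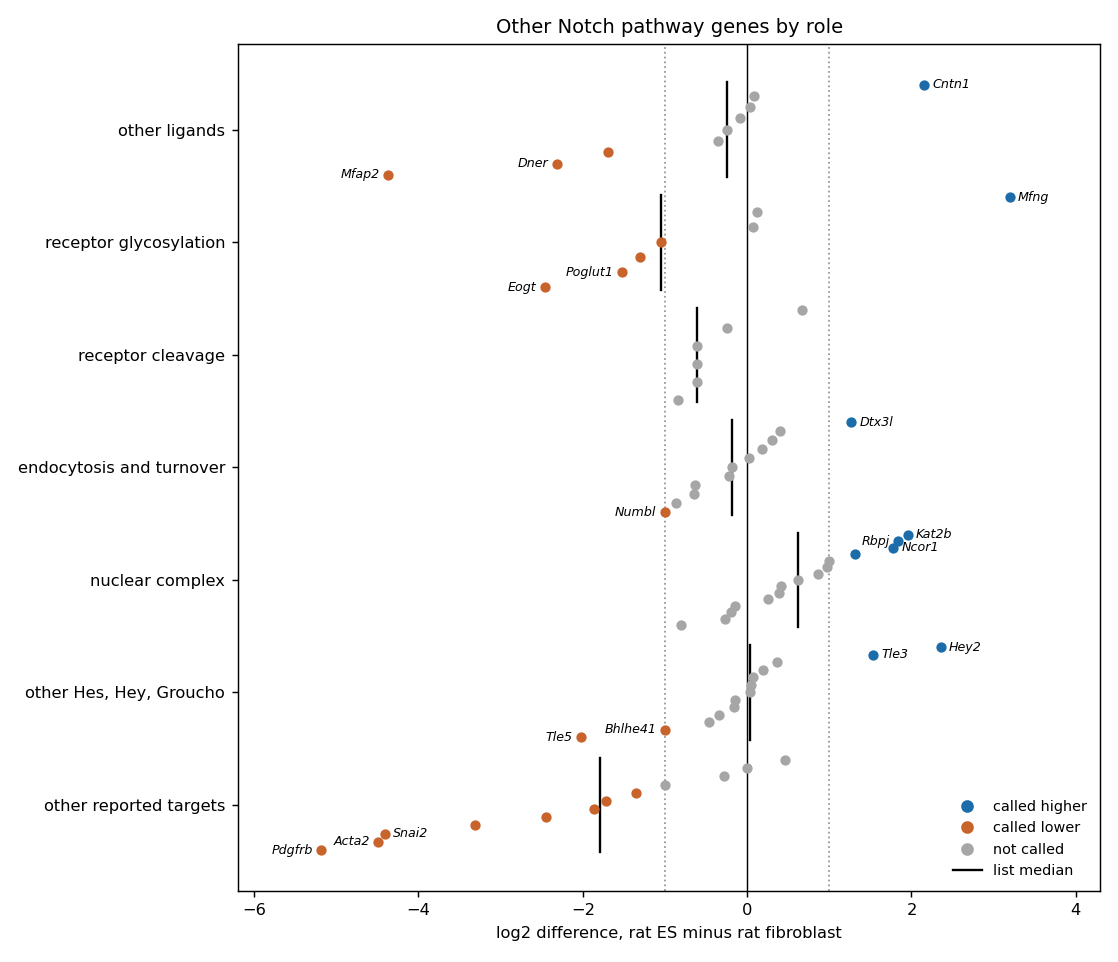
Log2 difference of rat ES minus rat fibroblast for 73 other Notch pathway genes in 7 lists by role; each point is 1 gene, black bars are list medians and dotted lines mark 2-fold. The nuclear complex has its median at 0.62 with 4 genes called higher, and the other reported targets have theirs at -1.79 with 8 called lower.

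Mouse ES cells were measured on another platform, so their values are given only as percentiles within each array among 12114 symbols found in both tables, with no test. A percentile of 50 is the middle gene of the array. Species, medium, platform and probe sequence all differ between mouse ES and rat ES arrays and cannot be told apart. Many mouse probe sets carry the same deposited value on several arrays: between 16691 and 20845 of 35557 were identical in a pair of mouse arrays, against at most 30 of 29215 in a pair of rat replicates. Of the 10 genes, 4 (Notch3, Notch4, Jag1 and Dll1) had 1 value on all 3 mouse arrays, 4 had 2 values and 2 had 3, so the narrow mouse ranges are not a measure of replicate error.

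All 4 receptor genes ranked higher in mouse ES than in rat ES cells. Notch3 lay at percentiles 79.8, 81.2 and 79.5 on the mouse arrays, 48.0, 52.0 and 51.9 on the rat ES arrays and 54.7, 59.5 and 58.4 on the rat fibroblast arrays. It was thus the receptor with the widest gap between the ES groups. Notch1 lay at 65.5 to 66.7 in mouse ES, 51.2 to 54.9 in rat ES and 50.3 to 51.3 in rat fibroblasts, where the rat groups overlapped. Notch2 ranked between the rat groups in mouse ES cells, at 77.1 to 78.6, above rat ES (65.0 to 67.8) and below fibroblasts (89.7 to 90.3). Notch4 lay at 48.7 to 49.0 in mouse ES and at 34.3 to 41.9 over all rat arrays, again with overlapping rat groups.

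Among the ligands, Jag1 ranked lowest in mouse ES cells, at percentile 47.1 to 47.2, then rat ES at 64.8 to 72.0 and rat fibroblasts at 96.7 to 96.8. The 3 groups did not overlap. Jag2 (62.8 to 67.0) and Dll1 (48.0 to 48.2) ranked higher in mouse ES than on any rat array, where Jag2 reached at most 49.96 and Dll1 at most 34.3.

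All 3 target genes ranked lower in mouse ES than in either rat group. Hes1 lay at 61.1 to 61.9 in mouse ES, 76.1 to 78.3 in rat ES and 77.2 to 78.3 in rat fibroblasts, with the rat groups overlapping. Hey1 was at 23.1 to 24.8 in mouse ES, 35.5 to 36.6 in rat ES and 45.7 to 49.7 in fibroblasts. Heyl followed the same order, at 29.7 to 31.1 in mouse ES and 35.8 to 38.0 in rat ES, with fibroblasts from 41.6 upwards (median 45.6). Over the 10 genes, mouse ES percentiles were all above those of rat ES in 6 and all below in 4, where the same holds for 44.9% and 42.5% of the shared symbols. Most genes are thus separated between these tables.

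**Figure D4:**
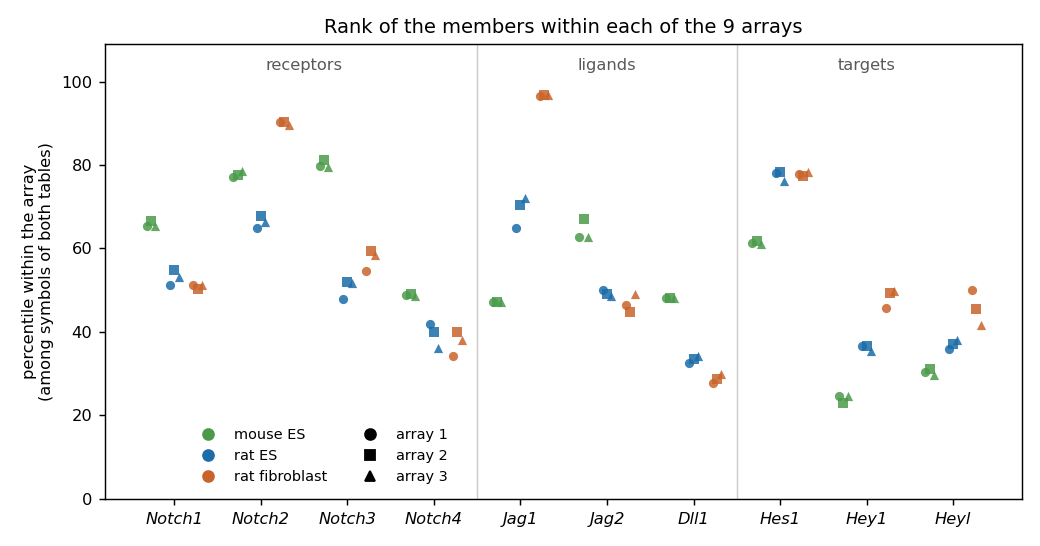
Percentile of the 10 genes within each of the 3 mouse ES, 3 rat ES and 3 rat fibroblast arrays, among symbols of both tables; each point is 1 array. Receptor points of mouse ES lie above those of rat ES, and the points of Jag1, Hes1, Hey1 and Heyl lie below them.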

How the data were processed

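The authors deposited log2 signals per probe set in 2 tables, 6 rat and 3 mouse arrays. The log2 scale was read from the range of the values, and how they were normalized is not given in the sources used here. RNA was labelled with biotin, per the labels' protocols. Probe sets with 1 gene symbol in the platform annotation were kept (15310 rat, 21789 mouse), and for a symbol with several the one with the highest mean over the table stands for the gene. Levels were tested only within the rat table, by limma (version 3.58.1, R 4.3.3) with group as the sole factor and no filter on level, Benjamini-Hochberg adjusted over all 14506 genes. Tested on simulated data for the rat comparison (14506 genes, 200 of them given a change), it called 100% at a log2 change of 1.5 and 100% at 3. Changes nearer the 2-fold threshold were not simulated, and a far smaller share of genes changed than the 20.7% called in the rat data. The members and lists were chosen with earlier results of these data known. Named are all 10 members, up to 3 called genes with the largest difference per list, up to 2 against a list's majority, the highest and lowest of each marker list and the 3 genes most like Jag1. Other genes are named to fill out a role and were chosen after their values were seen. Alternatives were other scalings, level filters, probe set rules, moderation and thresholds, a block for the replicate number, and the removal of single arrays. The number of arrays limits the precision.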

Additional observations from a re-analysis of the deposited data

How the results depend on the processing

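Jag1 and Notch2 were called lower under all 17 alternatives, with log2 differences of -2.69 to -2.46 and -1.65 to -1.52, and limma adjusted p no higher than 5.94e-06 and 1.25e-05. The counts of 2 members lower and 0 higher held in every setting but 2 other thresholds: with no fold, 5 were lower and 1 higher, and at 1.5-fold 4 were lower. Over the pathway lists, no fold threshold gave 22 higher and 35 lower, and 1.5-fold gave 14 higher and 27 lower. The difference of Hes1 turned to -0.022 after quantile normalization, and that of Notch4 ranged from -0.078 to 0.11 on leaving out each array. The median filter removed Notch4, Dll1, Hey1 and Heyl, so they have no value there. The median difference of all genes moved to 0.02 after quantile normalization and 0.07 after median centring. With the replicate number as a block, 2 members were lower and 9 and 18 pathway genes higher and lower, so no member's call changed. For this pairing, the deviations of same-numbered arrays had correlations of -0.00044, 0.031 and -0.0003, and 1 of 3 numbers matched its own best, so no pairs were assumed. Of 10 members, 6 stayed above and 4 below rat ES in mouse ES percentile on leaving out each array. With symbols of low level removed 3 were below, where Hey1 had no value. The percentiles themselves depended on which symbols were ranked. Over 12 alternatives, the mouse ES median ranged from 49.6 to 73.5 for Notch1 and from 4.7 to 41.5 for Heyl. Ranked among all named genes of each table, Heyl had medians of 41.5 in mouse ES and 43.6 in rat ES cells, a narrower gap.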
